A study of Mus musculus with 12 samples.

Results

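Interleukin 10 (IL-10) was added together with lipopolysaccharide (LPS, a cell wall component of Gram-negative bacteria) to mouse macrophages that lack the gene for IL-10, and the change it made at 4 h was described across genes. The 2 arrays of IL10-/- cells given LPS with IL-10 were compared with the 2 arrays of IL10-/- cells given LPS alone, which are 4 of the 12 arrays of the series. The comparison ran over 12393 genes, each read by 1 probe set, the one with the highest mean over the 12 arrays among those that name a single gene.

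The macrophages were bone marrow-derived, that is, grown from marrow cells for 5 days in 10% serum and 30% medium conditioned by L cells, which secrete the macrophage growth factor Csf1. The labels give their strain as 129-SvEv-Tac and call the 2 arrays of a group biological replicates. Cells of one genotype, IL10-/-, received LPS (1 ng/ml) together with IL-10 (0.3 ng/ml), the same dose of LPS alone, or no stimulus. The other, p50-/-IL10-/-, which also lacks the NF-kB protein p50, was given the same 3 treatments and serves here as the second setting in which the effect of IL-10 was measured. All groups carry the Il10 knockout, so the cells' own IL-10 is absent by the labels in the arms with and without added IL-10. The age and sex of the mice, and whether a replicate stands for 1 mouse, are not stated by the labels, so a p-value here speaks only of the spread among these arrays, which may be technical.

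IL-10 binds a receptor made of the chains Il10ra and Il10rb. The kinases Jak1 and Tyk2 at this receptor activate the transcription factor STAT3, whose targets restrain the inflammatory programme of macrophages. LPS acts through the receptor Tlr4, which switches on NF-kB and, by a second branch, interferon beta, and the interferon then induces antiviral genes in the same cells.

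The genes that moved most, and the promoter windows that the gene table holds for them, are shown here so that the values below can be read beside the DNA. Each window runs from 250 bases before a gene's start to 50 bases after it, 5′ to 3′ on the gene's strand, from RefSeq on build GRCm38.p6. Capitals mark every match, on either strand, to 5 motifs. These were the STAT motif TTCNNNGAA, the interferon response core GAAANNGAA (called ISRE below), the NF-kB consensus, the metal response elements TGCACNC and TGCGCNC, and the hypoxia response core ACGTG. The windows are those of the pair of largest increases and the pair of largest decreases that have one. Cxcl10 was added after its values were seen, because its window holds matches to the NF-kB consensus and the ISRE, and 2 of its 3 NF-kB matches overlap in 1 run of capitals.
Mt2 (chr8:94172368-94172667, plus strand): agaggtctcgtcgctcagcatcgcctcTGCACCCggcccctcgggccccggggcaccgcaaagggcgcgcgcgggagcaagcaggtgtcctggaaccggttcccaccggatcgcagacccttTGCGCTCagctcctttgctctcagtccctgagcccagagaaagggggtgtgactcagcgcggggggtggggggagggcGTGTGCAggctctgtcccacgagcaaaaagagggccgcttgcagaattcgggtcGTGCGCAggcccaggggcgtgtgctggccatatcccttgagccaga
Il4ra (chr7:125552021-125552320, plus strand): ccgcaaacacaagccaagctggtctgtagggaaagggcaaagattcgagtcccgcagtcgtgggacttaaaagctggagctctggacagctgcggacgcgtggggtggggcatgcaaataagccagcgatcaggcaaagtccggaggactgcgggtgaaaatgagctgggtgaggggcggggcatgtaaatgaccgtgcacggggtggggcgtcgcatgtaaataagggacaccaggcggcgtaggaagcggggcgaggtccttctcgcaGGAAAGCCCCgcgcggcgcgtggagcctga
Il12b (chr11:44399813-44400112, plus strand): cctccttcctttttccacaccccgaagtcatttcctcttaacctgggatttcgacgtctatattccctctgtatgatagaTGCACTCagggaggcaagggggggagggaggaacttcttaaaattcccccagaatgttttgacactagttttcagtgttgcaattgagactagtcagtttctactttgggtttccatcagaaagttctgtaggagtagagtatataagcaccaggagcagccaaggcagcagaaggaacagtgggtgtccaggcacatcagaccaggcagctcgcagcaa
Il6 (chr5:30012864-30013163, plus strand): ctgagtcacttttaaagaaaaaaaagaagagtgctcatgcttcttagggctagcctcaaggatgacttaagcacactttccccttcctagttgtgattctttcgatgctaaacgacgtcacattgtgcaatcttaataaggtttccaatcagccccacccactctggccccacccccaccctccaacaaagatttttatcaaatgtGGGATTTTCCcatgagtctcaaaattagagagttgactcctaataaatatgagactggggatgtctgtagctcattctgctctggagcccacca
Cxcl10 (chr5:92348840-92349139, minus strand): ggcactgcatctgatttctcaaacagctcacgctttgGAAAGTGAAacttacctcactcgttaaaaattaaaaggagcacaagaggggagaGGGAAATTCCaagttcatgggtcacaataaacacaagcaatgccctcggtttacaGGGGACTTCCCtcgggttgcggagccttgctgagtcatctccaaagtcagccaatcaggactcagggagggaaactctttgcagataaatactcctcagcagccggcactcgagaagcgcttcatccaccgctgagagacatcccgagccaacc
The Mt2 window holds 4 metal response elements, the windows of Il4ra and Il6 hold 1 NF-kB match each, and the Il12b window holds 1 metal response element. The motifs not met in these 4 windows occurred first, in order of the size of the increase, in a window of Gcnt2 and in 1 of Olfm1, of which only the match and its flanks are shown.
Gcnt2, STAT motif (chr13:40886516-40886554, plus strand): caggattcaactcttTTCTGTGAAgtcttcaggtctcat
Gcnt2, hypoxia core (chr13:40859784-40859817, plus strand): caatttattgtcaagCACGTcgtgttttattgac
Olfm1, ISRE (chr2:28192874-28192912, plus strand): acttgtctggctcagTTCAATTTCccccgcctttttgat

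Across all measured genes, 12559 windows of 9882 genes were available. The STAT motif was held by 11.1% of 90 windows of genes called higher at least 2-fold with IL-10, and by 6.98% of all windows. The ISRE was held by 19.0% of 116 windows of genes called lower at least 2-fold, and by 7.15% of all windows. The NF-kB consensus was held by 15.6% of the windows of the genes called higher and by 19.0% of those of the genes called lower, with 10.2% of all windows. The metal response element stood in 31.1% and 29.3% of these windows and in 32.9% of all windows, and the hypoxia core in 23.3% and 17.2% and in 23.4% of all windows. These shares are descriptions of letters in short windows, and binding was not measured.

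With IL-10, the receptor gene Il4ra, the IL-1 antagonist Il1rn, metallothioneins and 14 genes of glycolysis and hypoxia were higher, and genes for IL-12, IL-6, several chemokines and the interferon-induced antiviral proteins were lower. A gene was called where limma's adjusted p was under 0.05. Of 12393 genes, 415 were called higher (3.35%) and 350 lower (2.82%). These shares are the background against which the counts of calls below are to be read. The gene lists were chosen with earlier results of these data known, so a list share above the background is a description and not a test. At an unadjusted p under 0.05 in limma, 1196 of the 12393 genes were higher and 907 lower. Counts of list members at that threshold for this effect are to be read against these. At least 2-fold differences were met by 71 of the genes called higher and 101 of those called lower, and at least 4-fold differences by 6 and 20. The arrays of the groups did not overlap for any called gene. A low adjusted p makes this likely, and the share of all genes without overlap is not given here, so it adds no support to the calls. The median difference over all genes was 0.01 on the log2 scale, with quartiles at -0.08 and 0.10. Fitted without 1 array at a time, 290 of the 765 calls were kept in all 4 fits, 150 of them higher and 140 lower. The total was 466 without array 1 of LPS alone, 429 and 426 without array 1 and array 2 of LPS with IL-10, and 1082 without array 2 of LPS alone.

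**Figure D1:**
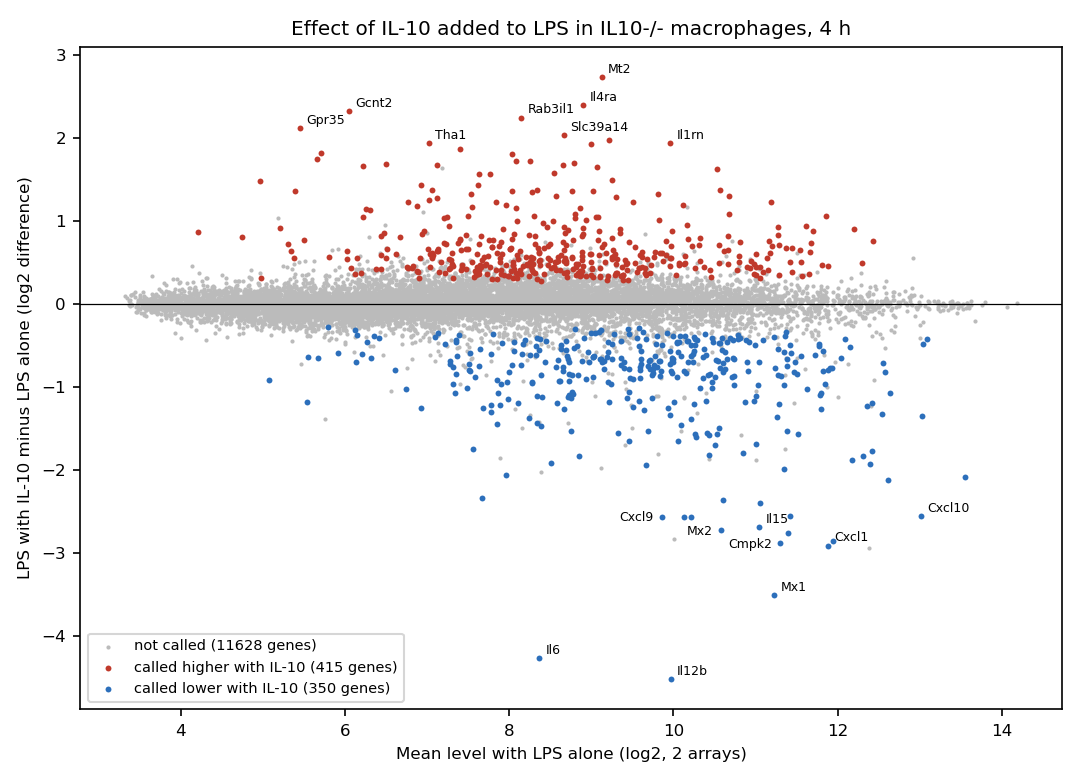
Each point is 1 gene, with the mean level with LPS alone on the horizontal axis (log2, 2 arrays) and the log2 difference, LPS with IL-10 minus LPS alone, on the vertical axis. The 415 genes called higher are red, the 350 called lower are blue, and Il12b and Il6 lie lowest, below -4.

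The values below are log2 levels, in which 1 unit is a factor of 2, and differences are given with their standard error (SE), n = 2 arrays in each group. For some genes the other probe sets are not given. Array lower quartiles lay between 5.49 and 5.61, and a fold that involves a group mean under 5.61 is uncertain in size. Among the genes named here this holds for Il12b, Il6, Ltb, Il12a, Gpr35, Arg1, Saa1 and Serpinb2. Over the 12 arrays the median level lay between 6.92 and 6.97, and arrays of a group correlated at 0.992 to 0.997 across genes. Permuting 2 arrays against 2 exactly gives no two-sided p under 0.333, so all tests are limma's, which draw the spread of a gene from all 12 arrays and from the other genes.

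By the probe sets used, the largest increase was in Mt2 (gene ID 17750), a metallothionein that binds zinc and copper. It read 11.57 and 12.17 with IL-10, against 8.52 and 9.75 with LPS alone, a 6.67-fold difference (2.74 ± 0.41, adjusted p = 0.00247). The groups were well apart, although the arrays of LPS alone differed from each other by more than 1 unit, and unstimulated cells read 9.03 and 9.72. Il4ra (gene ID 16190), the signalling chain of the receptor for IL-4 and IL-13, read 11.39 and 11.21 with IL-10, against 8.97 and 8.84 with LPS alone, which is 5.28-fold higher (2.40 ± 0.13, adjusted p = 8.12e-06). Its 2 other probe sets gave differences of 0.85 and 2.28, and both were called. With LPS alone Il4ra stood a little under the unstimulated arrays (9.45 and 9.30), so the level with IL-10 lay above both other conditions. Gcnt2, a glycan branching enzyme, read 8.43 and 8.32 with IL-10, against 6.15 and 5.94 with LPS alone, and was higher by 2.33 ± 0.17. Of its 6 other probe sets, 2 were called higher and the range of differences was -0.17 to 1.29.

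Rab3il1, an exchange factor for a vesicle GTPase, had a different shape. It read 10.36 and 10.44 with IL-10, against 7.99 and 8.31 with LPS alone, and 10.16 and 10.17 in unstimulated cells, so its level with IL-10 lay near that of unstimulated cells. Of its 4 other probe sets, 2 were called higher and the range of differences was 0.03 to 2.70. Slc39a14, a zinc importer, read 10.60 and 10.83 with IL-10, against 8.56 and 8.78 with LPS alone, and 7.38 and 7.72 unstimulated. Its other probe set was not called (0.58). Il1rn, the secreted antagonist of IL-1, read 12.00 and 11.80 with IL-10, against 10.23 and 9.70 with LPS alone, and 8.58 and 8.36 unstimulated. For these last genes the order was the same on every array, lowest without stimulus and highest with IL-10. The same order held for the gap junction gene Gja1, at 11.23 and 11.17 with IL-10, 8.99 and 9.46 with LPS alone and 7.13 and 7.71 unstimulated. Of its 5 other probe sets, 3 were called higher and the range of differences was 0.50 to 2.22.

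The other genes among the 15 largest increases rose by 1.73 to 2.12. They were Gpr35 (a G protein-coupled receptor), Tha1 (a threonine aldolase), Ccl8 (a monocyte attractant), Ifitm1 (an interferon-induced membrane protein), Steap4 (a metalloreductase), Id1 (an inhibitor of basic helix-loop-helix factors), Gda (guanine deaminase) and Olfm1 (a secreted olfactomedin). The call of Ccl8 ended in 3 of the 4 fits that left out 1 array, where the adjusted p reached 0.14. Steap4 has a second, dimmer probe set that was also called higher, by 4.16, and the mean of its sets, 2.99, exceeds the increase of Mt2. Rab3il1, Gja1 and Gda were read by probe sets whose names mark shared probes, so related sequences can add to their signal. The same holds for Tsc22d1, Ptpn6, Tlr3, Mt1, Ndrg1, Tpi1, Saa1, Fcgr2b, Trim25, Gbp2, Fth1, Slc2a3, S100a8 and Ighm.

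The largest decrease was in Il12b (gene ID 16160), the p40 subunit of IL-12 and IL-23. It read 5.51 and 5.39 with IL-10, against 10.07 and 9.87 with LPS alone, and by the probe sets used fell furthest of all genes (-4.52 ± 0.21, adjusted p = 4.05e-06). The IL-10 arrays lay close to the unstimulated ones (4.86 and 4.66), within the dim range. Il6 (gene ID 16193), the acute phase cytokine, read 3.90 and 4.30 with IL-10, against 9.04 and 7.69 with LPS alone, and 3.80 and 3.93 unstimulated. It was lower by a log2 difference of -4.27 ± 0.33 (adjusted p = 3.48e-05), and the arrays of LPS alone differed from each other by more than those of the other groups. Cxcl1, which attracts neutrophils, read 8.70 and 9.22 with IL-10, against 11.76 and 11.99 with LPS alone, and fell 7.54-fold. Il15, which sustains NK cells and memory T cells, read 8.25 and 8.46 with IL-10, against 11.19 and 10.90 with LPS alone, and 8.10 and 8.18 unstimulated, so the IL-10 arrays lay just above the unstimulated ones.

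Rgs1, which ends G protein signals at chemokine receptors, read 7.85 and 7.45 with IL-10, against 10.48 and 9.95 with LPS alone, and 9.98 and 9.93 unstimulated. Its level with IL-10 was thus below those of both other conditions. Tsc22d1, a leucine zipper regulator, also lay below both, at 8.45 and 8.86 with IL-10, against 10.98 and 11.13 with LPS alone and 9.17 and 9.49 unstimulated, though of its 5 other probe sets 2 were called, both lower, and the highest difference was 0.15. The remaining genes among the 15 largest decreases were the chemokines Cxcl9 and Cxcl10, the GTPase Irgm2, the pyrimidine nucleotidase Nt5c3 and the antiviral genes Mx1, Mx2, Cmpk2, Ifit2 and Usp18, with differences of -3.51 to -2.55. With single arrays left out, the calls of Mx1, Ifit2 and Usp18 ended in 2 of the 4 fits, where the adjusted p reached 0.171, 0.233 and 0.129.

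**Figure D2:**
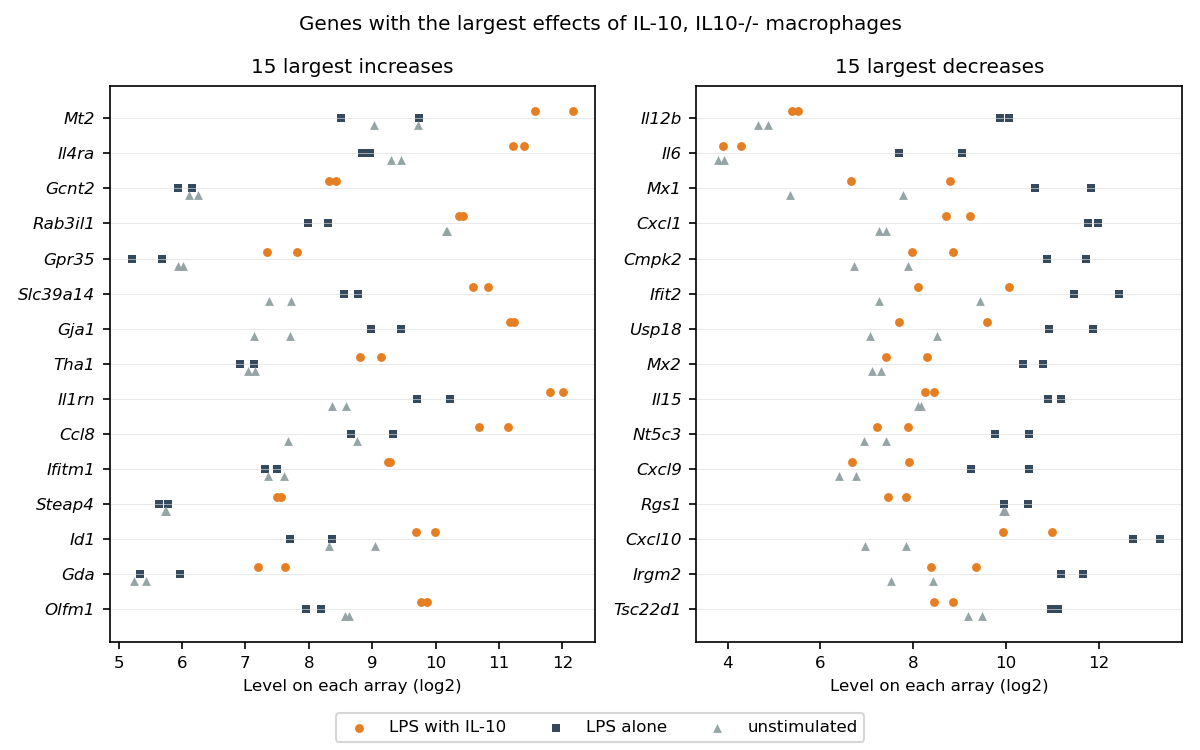
Log2 level on each array of IL10-/- cells for the 15 largest increases (left) and the 15 largest decreases (right), with LPS with IL-10 as orange circles, LPS alone as dark squares and unstimulated cells as grey triangles. The orange and dark points of a gene do not overlap because the genes were chosen so, and the level of Il12b with IL-10 (5.51 and 5.39) lies close to that without stimulus.

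The receptor and its pathway were described first among the gene lists. Of 17 measured genes for the IL-10 receptor and STAT3 signalling, 5 were called higher, 3 lower and 9 were not called, with a median difference of 0.07. Stat3 itself read 11.85 and 11.67 with IL-10, against 10.67 and 10.69 with LPS alone, a 2.12-fold difference (adjusted p = 9.34e-05), while unstimulated cells (10.68 and 10.63) lay with LPS alone. Ptpn1, a tyrosine phosphatase that acts on Jak kinases, was higher by 0.94 ± 0.12, the IL-6 receptor chain Il6ra by 0.82 ± 0.15 and Jak1 by 0.52 ± 0.09. Socs3, which blocks signalling through the IL-6 receptor chain gp130, read 12.04 and 11.97 with IL-10, against 11.26 and 11.32 with LPS alone, and 7.79 and 7.67 unstimulated. The ligand-binding receptor chain Il10ra went the other way, at 8.78 and 8.99 with IL-10, against 9.81 and 9.67 with LPS alone (-0.86 ± 0.12). Tyk2 (-0.72 ± 0.11) and the kinase Pim1 (-0.54 ± 0.14) were also lower, and the call of Pim1 ended in all 4 fits with 1 array left out. Those of Il6ra and Jak1 ended in 1. Il6ra and Il10ra each have other probe sets that were not called (the other Il6ra set read -0.00, the 2 other Il10ra sets -0.24 and -0.01). Of the 2 other Stat3 sets, 1 was called higher (1.24) and 1 was not called (0.11). The 2 other Socs3 sets, 0.45 and 0.31, were not called, and neither was the other Pim1 set (-0.42). Of the 2 other Jak1 sets, 1 was called higher (0.52) and 1 was not called (0.48). The other Ptpn1 set was called higher (1.16). Socs1, which blocks interferon and LPS signals, read 7.07 and 6.75 with IL-10, against 9.05 and 7.45 with LPS alone, and was not called (-1.34 ± 0.38, adjusted p = 0.0682). The second receptor chain Il10rb was not called, with a 95% interval of -0.04 to 0.35. The others not called, Socs2, Cish, Pias3, Ptpn2, Ptpn6, Ptpn11 and Il6st, had differences of -0.24 to 0.17.

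Il10 (gene ID 16153), the gene deleted in all groups, read 6.83 and 6.96 with IL-10, against 7.71 and 7.55 with LPS alone, and 6.57 and 6.98 unstimulated. Where its probe set lies relative to the deletion is not stated by the labels, so this signal checks nothing about the knockout. Its call (-0.74 ± 0.16, adjusted p = 0.0193) ended in 3 of the 4 fits with 1 array left out.

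Genes known as effectors that IL-10 induces in macrophages were described next. Of 26 measured, 11 were called higher, 2 lower and 13 were not called, with a median of 0.50 against 0.01 over all genes. Besides Il4ra and Il1rn they included Arg2, the mitochondrial arginase, which read 9.10 and 9.32 with IL-10, against 7.46 and 7.81 with LPS alone (1.57 ± 0.17). Bcl3, an IkB family protein that holds NF-kB dimers on DNA, was higher by 1.29 ± 0.15 and read 10.45 and 10.74, against 9.08 and 9.52. The chemokine receptor Ccr1 (1.37 ± 0.31) and the growth inhibitor Ddit4 (1.26 ± 0.28) were higher, with calls that ended in 2 and 3 of the 4 fits with 1 array left out. The other Ccr1 probe set was not called (0.41). Nfil3, a repressor of Il12b, was higher by 0.94 ± 0.14, the inhibitory Fc receptor Fcgr2b by 0.91 ± 0.12 and the MAP kinase phosphatase Dusp1 by 0.70 ± 0.12 (call lost without array 1 of LPS with IL-10). Marco, a scavenger receptor, was lower by a log2 difference of -1.60 ± 0.31, and Plaur, the urokinase receptor, by -0.79 ± 0.13. The call of Marco ended in 2 of the 4 fits, and the list held 7 to 11 genes called higher with 1 array left out. Hmox1, which degrades haem, read 11.82 and 12.42 with IL-10, against 11.18 and 11.85 with LPS alone, and was not called, with an interval of -0.07 to 1.30. Zfp36, which marks cytokine mRNA for decay, was not called either, with a difference of 0.11 and an interval of -0.16 to 0.38.

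Among 22 measured genes of pro-inflammatory cytokines, 10 were called lower, 0 higher and 12 were not called, and none was higher at an unadjusted p under 0.05 in limma. Their median was -0.52. The list holds Il10 itself, which is not pro-inflammatory and whose probe set is described above, as 1 of the 10 called lower. With 1 array left out, 7 to 13 were called lower. Tnf (gene ID 21926), an early cytokine of the LPS response, read 11.22 and 11.24 with IL-10, against 12.47 and 12.37 with LPS alone, and 8.60 and 8.42 unstimulated. It was 2.28-fold lower (adjusted p = 0.000135), and its level with IL-10 stayed above that of unstimulated cells on every array. Il1a, a membrane-held form of IL-1, read 7.11 and 6.61 with IL-10, against 8.54 and 7.94 with LPS alone (-1.38 ± 0.19). Csf1, the macrophage growth factor, read 8.28 and 8.54 with IL-10, against 10.03 and 10.08 with LPS alone, and 8.05 and 8.39 unstimulated. Il1b, which the inflammasome processes to its active form, differed from these. It read 12.46 and 11.98 with IL-10, against 12.50 and 12.13 with LPS alone, the arrays overlapped, and the interval of the difference was -0.66 to 0.48. Ifnb1, interferon beta, read 5.91 and 5.70 with IL-10, against 6.87 and 6.34 with LPS alone, and 6.04 and 6.00 unstimulated. Its call (-0.80 ± 0.18) and that of the p35 subunit gene Il12a (-0.64 ± 0.15) each ended in 3 of the 4 fits with 1 array left out. Tnfsf9, a T cell co-stimulator, was lower by a log2 difference of -1.03 ± 0.17. Csf2, Csf3, Il23a, Lta, Ltb, Lif and Inhba were not called, with differences of -0.38 to 0.19.

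Of 24 measured CXC and CC chemokines, 6 were called lower, 2 higher and 16 were not called, with a median of -0.36. Leaving out 1 array gave 5 to 10 called lower. Cxcl10, which attracts activated T cells, read 10.99 and 9.93 with IL-10, against 13.32 and 12.73 with LPS alone, and 7.84 and 6.97 unstimulated (-2.56 ± 0.36, adjusted p = 0.0017). Cxcl9, a second ligand of the same receptor, read 7.90 and 6.68 with IL-10, against 10.48 and 9.24 with LPS alone. In every group array 1 of these genes lay above array 2, and the groups did not overlap. Cxcl2, a neutrophil attractant, read 10.55 and 10.74 with IL-10, against 12.42 and 12.42 with LPS alone, which is 3.42-fold lower (adjusted p = 8.79e-06). The monocyte attractant Ccl2 was lower by a log2 difference of -1.56 ± 0.17. Ccl3, which attracts monocytes and T cells, was lower by a log2 difference of -0.96 ± 0.21, with a call that ended in 3 of the 4 fits. Ccl8 and Ccl6 were the 2 called higher, Ccl6 by 0.51 ± 0.08, at 12.05 and 12.08 with IL-10 against 11.50 and 11.62 with LPS alone. Ccl5 was not called, at 12.80 and 12.41 with IL-10 against 13.10 and 12.92 with LPS alone, and its interval, -1.81 to 1.00, was wide.

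The interferon-induced antiviral genes moved in 1 direction. All 38 measured genes of this list had differences below 0, from -3.51 to -0.34, with a median of -1.24 against 0.01 over all genes. Of them, 17 were called lower, 0 higher and 21 were not called, and 30 were lower and 0 higher at an unadjusted p under 0.05 in limma. The mean of the list was 9.84 and 8.63 with IL-10, against 11.15 and 10.40 with LPS alone, and 9.14 and 7.94 unstimulated. In each of these groups array 1 lay above array 2, and this spread between arrays of a group enters the SE of each gene. The count of calls changed when 1 array was left out, and the reason was not tested. It was 5 without array 1 of LPS alone, 5 without array 2 of LPS with IL-10, 20 without array 2 of LPS alone and 22 without array 1 of LPS with IL-10. What sets the arrays numbered 1 apart was not tested.

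Mx1, a dynamin-like GTPase that blocks viral replication, read 8.78 and 6.66 with IL-10, against 11.83 and 10.63 with LPS alone, and 7.79 and 5.34 unstimulated. Mx2, a related GTPase, was tighter, at 8.29 and 7.41 with IL-10, against 10.80 and 10.37 with LPS alone (-2.73 ± 0.23, adjusted p = 7.28e-05). Its level with IL-10 lay just above that of unstimulated cells (7.30 and 7.11). Rsad2, which makes a chain-ending nucleotide, was lower by -2.08 ± 0.45, Ifit1, which binds viral RNA, by -2.13 ± 0.48 and the OAS family member Oasl1 by -2.36 ± 0.58, each on the log2 scale. Each of these 3 calls ended in 2 of the 4 fits with 1 array left out. Genes with a small spread between arrays were the ubiquitin ligases Trim21 (-1.50 ± 0.15) and Trim25 (-1.17 ± 0.11), whose calls were kept in all 4 fits. Ifit3, whose difference was -2.95 ± 0.79, was not called (adjusted p = 0.0545), at 10.64 and 8.23 with IL-10 against 13.01 and 11.76 with LPS alone.

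Genes of interferon signalling moved in both directions. Of 18 measured interferon receptors, STATs and IRFs, 4 were called lower, 2 higher and 12 were not called, with a median of -0.15. Irf1 (gene ID 16362), a transcription factor of LPS and interferon responses, read 11.18 and 11.25 with IL-10, against 12.55 and 12.53 with LPS alone, and 10.40 and 10.31 unstimulated. The arrays of a group lay within 0.1 of each other, and Irf1 was 2.50-fold lower (adjusted p = 8.12e-06). Irf7, the amplifier of interferon production, read 10.25 and 8.01 with IL-10, against 11.54 and 10.48 with LPS alone, and was not called (interval -3.50 to -0.27, adjusted p = 0.204). Usp18, which dampens the interferon receptor, was called lower, as were Tyk2 and Irf5 (-0.39 ± 0.10), and the calls of Usp18 and Irf5 ended in 2 and 3 of the 4 fits. The other Irf5 probe set was not called (-0.0005). The receptor chain Ifnar1 was higher by 0.52 ± 0.10, with a call that ended in 2 of the 4 fits.

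Of 10 measured guanylate-binding proteins and immunity-related GTPases, which attack the vacuoles of intracellular microbes, 4 were called lower, 0 higher and 6 were not called, with a median of -1.81. At an unadjusted p under 0.05 in limma, 9 were lower and 0 higher, and 2 to 6 were called lower with 1 array left out. Irgm2 read 9.35 and 8.39 with IL-10, against 11.66 and 11.19 with LPS alone, and Irgm1 read 9.34 and 8.76, against 10.98 and 10.71. Igtp (-1.99 ± 0.36) and Ifi47 (-1.83 ± 0.48) were the other 2 called, and their calls ended in 2 and 3 of the 4 fits. By the probe sets used, the guanylate-binding protein genes Gbp2, Gbp3 and Gbp7 had smaller differences, -0.69 to -0.45, and none was called. The other Gbp7 probe set was called lower (-0.93), and the other Gbp2 probe set was not called (-0.85). Members of these families are similar in sequence, and signal shared between them was not tested.

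**Figure D3:**
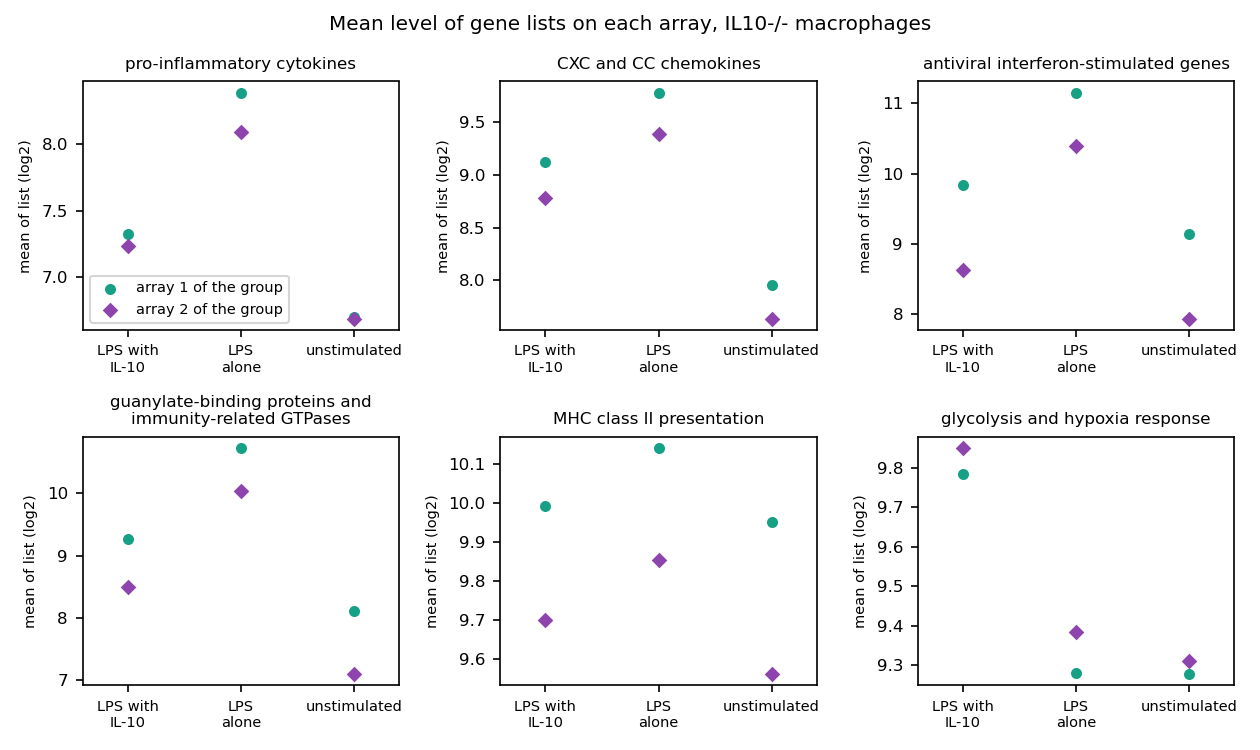
Mean log2 level of 6 gene lists on each array of IL10-/- cells, with LPS with IL-10, LPS alone and no stimulus from left to right in each panel, array 1 of a group as a circle and array 2 as a diamond. For the antiviral genes array 1 lies above array 2 in every group (9.84 and 8.63 with IL-10, 11.15 and 10.40 with LPS alone), and the vertical axes differ between panels and do not start at 0.

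Most genes of antigen presentation were not called. Of 16 measured genes of MHC class I presentation, 2 were called lower and 0 higher, with a median of -0.19. These were the peptide transporter genes Tap1 (-1.58 ± 0.33, 3 other probe sets not called) and Tap2 (-0.66 ± 0.17), whose calls ended in 2 and 4 of the 4 fits. Of 13 measured genes of MHC class II presentation, 0 were called, and 1 was lower and 0 higher at an unadjusted p under 0.05 in limma. The invariant chain gene Cd74 read 12.28 and 11.29 with IL-10, against 12.41 and 11.60 with LPS alone, with an interval of -1.08 to 0.63. It too read higher on array 1 of each group.

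Of 21 measured co-stimulation and adhesion genes, 8 were called lower, 1 higher and 12 were not called, with a median of -0.30. With 1 array left out, 2 to 10 were called lower. The ICOS ligand Icosl read 9.63 and 10.16 with IL-10, against 11.26 and 11.26 with LPS alone, and 8.22 and 7.90 unstimulated. Its other probe set was not called (-0.08). The adhesion receptors Vcam1 (-1.14 ± 0.24), Itga4 (-1.11 ± 0.22) and Icam1 (-0.71 ± 0.13) and the maturation marker Cd83 (-0.82 ± 0.15) were lower, as was the inhibitory ligand Cd274 (-0.77 ± 0.19). Of the 2 other Vcam1 probe sets, 1 was called lower (-2.32) and 1 was not called (-0.37). The 2 other Itga4 sets, -0.77 and -0.19, were not called. The calls of Vcam1, Itga4, Cd274 and Cd40 ended in 3 of the 4 fits, without array 1 of LPS alone and without either array of LPS with IL-10. Those of Icam1 and Cd83 ended in 1, without array 1 of LPS with IL-10, and that of Icosl was kept in all 4. Cd40, which takes T cell help, read 10.74 and 10.71 with IL-10, against 11.50 and 11.27 with LPS alone, and 6.96 and 6.50 unstimulated. The single gene called higher was Slamf1, a co-receptor of T cells and macrophages, at 7.83 and 8.18 with IL-10 against 6.73 and 6.82 with LPS alone. Cd80 and Cd86, the ligands of CD28, were not called, with differences of -0.14 and -0.20.

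Of 22 measured genes for NF-kB subunits, IkB proteins and feedback, 9 were called lower, 2 higher and 11 were not called, with a median of -0.17. Leaving out 1 array gave 4 to 9 called lower. The adaptor Traf1 read 8.30 and 8.02 with IL-10, against 9.80 and 9.57 with LPS alone, and 6.02 and 5.93 unstimulated. The subunit Rel read 6.99 and 6.85, against 8.37 and 7.85, and the ubiquitin ligase Birc2 read 8.69 and 8.71, against 9.52 and 9.66. Their groups did not overlap and their calls were kept in all 4 fits. The ubiquitin ligase Peli1 was lower by -0.80 ± 0.12, and the 2 genes called higher were Bcl3 and Tnip2 (0.48 ± 0.08, call ended in 1 of the 4 fits), which binds the deubiquitinase Tnfaip3. Nfkbiz, a co-activator of Il6 and Il12b (-0.87 ± 0.22), and the deubiquitinase Tnfaip3 (-0.78 ± 0.17) were lower, with calls that ended in 3 of the 4. In contrast Rela and the inhibitor Nfkbia were not called, with intervals of -0.29 to 0.04 and -0.20 to 0.10. Nfkbia read 13.41 and 13.42 with IL-10, against 13.44 and 13.48 with LPS alone, near the top of the measured range.

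Of 21 measured Toll-like receptors and sensors, 2 were called higher, 4 lower and 15 were not called. Pycard, the adaptor of the inflammasome, read 11.35 and 11.27 with IL-10, against 10.08 and 10.16 with LPS alone, and 10.68 and 10.55 unstimulated (1.20 ± 0.08). Its other probe set was not called (0.48). The nucleic acid receptors Tlr3 (-1.20 ± 0.23) and Tlr7 (-0.84 ± 0.12) and the sensors Nlrp3 (-0.77 ± 0.15) and Aim2 (-0.60 ± 0.12) were lower. The calls of Tlr3 and Nlrp3 ended in 2 of the 4 fits and that of Aim2 in 3, all of them without array 1 of LPS alone, where 1 gene of the list was called lower, and that of Tlr7 was kept in all 4. Tlr4, the LPS receptor, was higher by 0.50 ± 0.10, with a call that ended in 2 of the 4 fits, and its co-receptor Cd14 was not called (13.22 and 13.22 with IL-10, 13.29 and 13.28 with LPS alone). The other Tlr4 probe set was not called (0.36).

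Of 22 measured genes for antimicrobial and lipid mediator enzymes, 3 were called higher, 2 lower and 17 were not called. Pla2g4a, the cytosolic phospholipase that frees arachidonic acid, read 7.98 and 7.77 with IL-10, against 6.17 and 6.26 with LPS alone, and 6.01 and 5.84 unstimulated. The arginase genes Arg2 and Arg1 were the other members called higher, and Arg1 was dim, at 5.27 and 4.89 against 4.28 and 4.14. Gch1, which makes the cofactor of nitric oxide synthase, read 10.04 and 10.12 with IL-10, against 11.36 and 11.20 with LPS alone (-1.20 ± 0.09). Ch25h, which makes an antiviral oxysterol, was lower by -1.82 ± 0.38 on the log2 scale, with a call that ended in 2 of the 4 fits. Nos2, the inducible nitric oxide synthase, was not called and read 6.42 and 6.24 with IL-10, against 6.76 and 6.32 with LPS alone. Acod1, which makes itaconate, read 13.46 and 13.49 with IL-10, against 13.65 and 13.71 with LPS alone, with an interval of -0.80 to 0.39.

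Among 12 measured MAP kinase phosphatases and mRNA decay factors, Dusp1 and Dusp16 were called higher, the second by 0.45 ± 0.09 with a call that ended in 2 of the 4 fits, and Dusp2 was called lower (-1.20 ± 0.16). Of 23 measured immediate early and AP-1 genes, 3 were called higher, 7 lower and 13 were not called. Ier3, a survival gene, read 11.99 and 11.97 with IL-10, against 10.62 and 10.73 with LPS alone, and 10.31 and 10.52 unstimulated. Batf (1.16 ± 0.12) and Jun (0.80 ± 0.13), both AP-1 proteins, were also higher. Egr1, a zinc finger factor, read 7.08 and 6.75 with IL-10, against 8.66 and 8.12 with LPS alone, and 8.15 and 7.64 unstimulated. Its relative Egr2 was lower by a log2 difference of -1.43 ± 0.27. Maff (-0.93 ± 0.17), Klf6 (-0.85 ± 0.19) and Mafk (-0.69 ± 0.14) were lower too, as was Ier5 (-0.48 ± 0.10). The 2 other Ier5 probe sets, -0.23 and -0.18, were not called. With 1 array left out, 2 to 6 genes of the list were called lower. The calls of Mafk and Ier5 ended in 3 of the 4 fits, that of Klf6 in 2 and those of Egr2 and Maff in 1, without array 1 of LPS with IL-10. That of Egr1 was kept in all 4.

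Of 17 measured genes of metallothioneins, zinc and iron handling, 6 were called higher, 1 lower and 10 were not called, with a median of 0.16. Mt1, the second metallothionein, read 11.91 and 12.43 with IL-10, against 10.16 and 10.92 with LPS alone, and 11.03 and 11.54 unstimulated. Its other probe set was not called (0.20), and the one used carries a name that marks shared probes. The importers Slc39a14 and Slc39a8 (0.81 ± 0.15), the metalloreductase Steap4 and the copper oxidase Cp (1.37 ± 0.31) were the others called higher, and the calls of Slc39a8 and Cp ended in 2 of the 4 fits. The other Slc39a8 probe set was not called (0.40). Of the 6 other Cp sets 1 was called higher, and the range of differences was 0.15 to 1.73. The zinc exporter Slc30a1 was the member called lower, at 7.84 and 8.12 with IL-10 against 8.74 and 8.92 with LPS alone. The 10 not called included the ferritin chain Fth1 (interval -0.13 to 0.16) and the transferrin receptor Tfrc (interval -0.29 to 0.16), and the exporter Slc40a1 read 7.83 and 8.20 with IL-10, 8.11 and 8.62 with LPS alone and 10.75 and 10.83 unstimulated.

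Of 26 measured glycolysis and hypoxia genes, 14 were called higher, 0 lower and 12 were not called, with a median of 0.55. At an unadjusted p under 0.05 in limma, 17 were higher and 0 lower. Pfkfb3, which makes the activator of phosphofructokinase, read 10.79 and 10.71 with IL-10, against 9.38 and 9.12 with LPS alone, and 8.79 and 8.36 unstimulated. Its other probe set was not called (0.47). The lactate exporter Slc16a3 read 9.37 and 9.41, against 8.48 and 8.36, and the mitophagy gene Bnip3 read 10.10 and 10.11, against 8.88 and 9.22. Every array with IL-10 lay above every array with LPS alone for these genes. The oxygen sensor Egln3 was higher by 1.14 ± 0.15, triose phosphate isomerase Tpi1 by 0.82 ± 0.09, the glucose importer Slc2a1 by 0.71 ± 0.12, lactate dehydrogenase Ldha by 0.67 ± 0.10 and hexokinase Hk2 by 0.64 ± 0.10. Ndrg1 was higher by 0.92 ± 0.23, with a call that ended in 3 of the 4 fits. The list held 10 to 15 calls in the fits with 1 array left out. Hif1a, the hypoxia-inducible factor, was not called by the probe set used (0.34 ± 0.11). Of its 3 other probe sets, 1 was called higher (0.60), and those at 0.15 and 0.76 were not called. Vegfa and Slc2a3 had differences of -0.12 and -0.08. Of 26 measured respiratory chain and TCA cycle genes, with a median of 0.04, 2 were called higher. These were Fh1 (0.78 ± 0.19, call ended in 2 of the 4 fits) and Idh3a (0.50 ± 0.08). The 2 other Idh3a probe sets, 0.09 and -0.00, were not called.

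**Figure D4:**
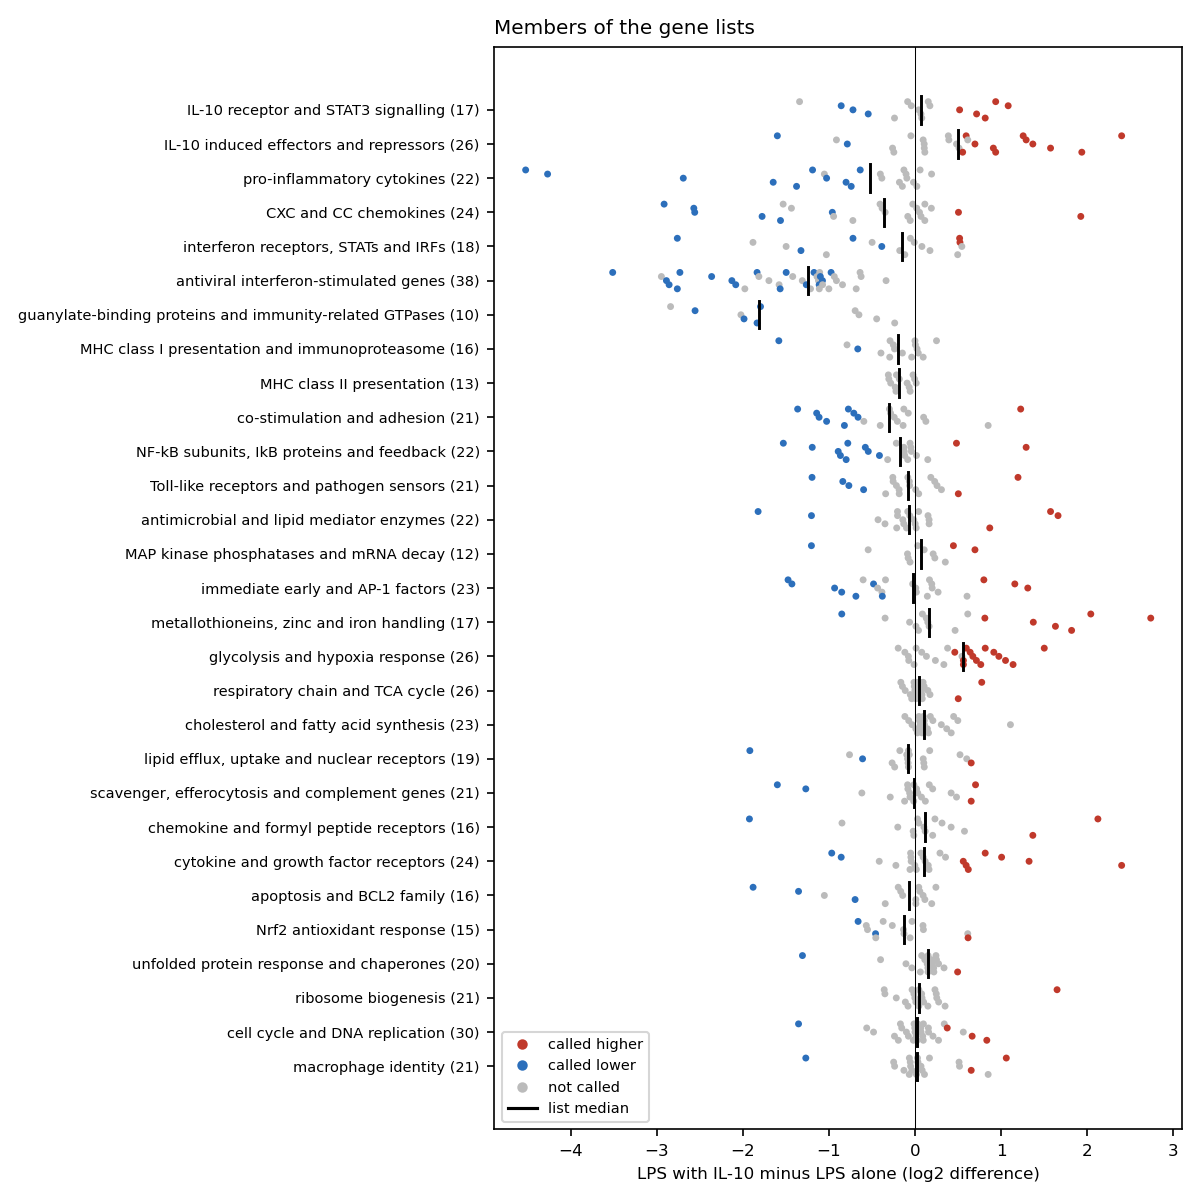
Log2 difference, LPS with IL-10 minus LPS alone, of each measured member of 29 gene lists in IL10-/- cells, with the number measured in brackets, called members in red (higher) and blue (lower), others in grey and the list median as a black bar. The medians of the antiviral genes (-1.24) and of the GTPases (-1.81) lie farthest left, and that of the glycolysis and hypoxia genes (0.55) farthest right.

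Receptor genes followed. Of 24 measured cytokine and growth factor receptors, 7 were called higher and 2 lower, and 3 to 6 were called higher with 1 array left out. The granulocyte growth factor receptor Csf3r read 11.27 and 11.01 with IL-10, against 9.95 and 9.68 with LPS alone, and 9.96 and 9.81 unstimulated. Il13ra1, which pairs with Il4ra, was higher by 1.01 ± 0.19 and Il17ra by 0.62 ± 0.12, with calls that ended in 2 of the 4 fits. The IL-21 receptor Il21r was higher by 0.59 ± 0.14, with a call that ended in 3. Il15ra, which presents IL-15, was lower by -0.97 ± 0.22 on the log2 scale, with a call that ended in 3, and its other probe set was not called (-0.62). Of 16 measured chemokine and formyl peptide receptors, 2 were called higher and 1 lower. The gene called lower was Ccrl2, a non-signalling chemerin receptor, at 10.35 and 10.60 with IL-10 against 12.44 and 12.35 with LPS alone. Of 19 measured lipid uptake and efflux genes, 1 was called higher and 2 lower. Olr1, a receptor for oxidised lipoprotein, read 6.77 and 6.41 with IL-10, against 8.71 and 8.30 with LPS alone. Mylip, which degrades the LDL receptor, was lower by -0.61 ± 0.12, with a call that ended in 3 of the 4 fits.

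In the remaining lists most members were not called. Scavenger and complement genes had 2 called higher, Mrc1 (0.70 ± 0.17) and Msr1 (0.65 ± 0.10), and 2 lower, Marco and Mertk, of 21. Apoptosis genes had 3 lower of 16, Daxx (-1.88 ± 0.23), Cdkn1a (-1.35 ± 0.10) and Cflar (-0.70 ± 0.09). Antioxidant genes had Osgin1 higher (0.62 ± 0.12) and Keap1 (-0.66 ± 0.09) and Gclm (-0.46 ± 0.11) lower, of 15. Chaperone genes had Atf6 higher (0.50 ± 0.09) and the heat shock gene Hspa1b lower (-1.31 ± 0.25), of 20. Ribosome biogenesis genes had 1 higher of 21, Tma16, which read 10.62 and 10.83 with IL-10, against 8.73 and 9.41 with LPS alone, and 7.16 and 6.90 unstimulated. Cell cycle genes had Ccnd3 (0.83 ± 0.11), Cdkn1b (0.66 ± 0.13) and Mcm4 (0.37 ± 0.08) higher and Cdkn1a lower, of 30. The other probe sets of Tma16 (0.32), Keap1 (-0.69), Cdkn1b (0.36) and Mcm4 (0.46) were not called. Of the calls in these lists, those of Mrc1 ended in all 4 fits with 1 array left out, of Gclm and Mcm4 in 3, of Marco, Osgin1, Atf6 and Cdkn1b in 2 and of Hspa1b in 1. By the probe sets used, none of 23 cholesterol and fatty acid synthesis genes was called, and 3 were higher and 0 lower at an unadjusted p under 0.05 in limma. Of the 2 other probe sets of Scd2, a member of this list, 1 was called higher (0.97) and 1 was not called (0.15).

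The labelled cell type was checked against its markers. Lyz2, Csf1r, Cd68 and Adgre1 read 12.54 to 14.08 in all 4 arrays, and none was called. Of 21 measured macrophage identity genes, the Fc receptor Fcgr3 (1.06 ± 0.10) and the scavenger receptor Msr1 were higher and the receptor for dying cells Mertk was lower (-1.27 ± 0.19). Mertk read 7.49 and 7.30 with IL-10, against 8.87 and 8.46 with LPS alone, and 10.32 and 10.49 unstimulated. Markers of lymphocytes (B, T and NK), of neutrophils, mast cells and dendritic cells, and of the erythroid and stromal lineages counted 0 calls of 48 measured, with 1 higher and 3 lower at an unadjusted p under 0.05 in limma. The mean of the neutrophil list was 8.60 and 8.62 with IL-10, against 8.69 and 8.77 with LPS alone. S100a8, S100a9, Ngp and Ighm were not low, at 10.24 to 11.31 in these arrays. Bulk RNA cannot tell fewer cells of a type from less RNA per cell.

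The same addition of IL-10 was measured in p50-/-IL10-/- cells, which share no arrays with this comparison, and the difference between the effects was tested directly. There 458 genes were called higher (3.70%) and 356 lower (2.87%). Of the genes called higher in IL10-/- cells, 189 were also called higher in p50-/-IL10-/- cells, which is 45.5% of the first list and 41.3% of the second. Of those called lower, 143 were shared, 40.9% of the first list and 40.2% of the second. In the test of the difference, 17 genes were called (0.137%), 5 with a more positive effect in IL10-/- cells and 12 with a more negative one, and 1452 had an unadjusted p under 0.05. The estimated spread of a gene comes from all 12 arrays, so these counts are not independent of each other. The count of 17 was 4 to 43 with 1 array left out, namely 10 and 43 when array 1 and array 2 of the IL10-/- group on LPS alone were dropped, 4 and 5 when those of the p50-/-IL10-/- group on LPS with IL-10 were dropped, and 11 to 14 without any other array.

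Il15, Irf1, Serpinb2 and Gpr146 shared the lowest adjusted p in this test. Il15 had an effect of -2.69 ± 0.12 in IL10-/- cells and -0.77 ± 0.12 in p50-/-IL10-/- cells (difference -1.92 ± 0.17, adjusted p = 0.00295). In p50-/-IL10-/- cells it read 11.19 and 11.24 with IL-10, against 12.00 and 11.97 with LPS alone. Irf1 had an effect of -1.32 ± 0.07 in IL10-/- cells and -0.27 ± 0.07 in p50-/-IL10-/- cells (difference -1.06 ± 0.10). Serpinb2, an inhibitor of plasminogen activators, read 6.80 and 6.70 with IL-10, against 5.42 and 5.37 with LPS alone, in IL10-/- cells, and 4.60 and 4.74 against 4.47 and 4.57 in p50-/-IL10-/- cells. Gpr146, a G protein-coupled receptor, was higher by 1.06 ± 0.07 in IL10-/- cells, and its effect in p50-/-IL10-/- cells was 0.05 ± 0.07. These 4 calls were kept in all 8 fits with 1 array left out.

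For Cdkn1a, an inhibitor of the cell cycle, Tsc22d1 and Steap4 the effect was also larger in size in IL10-/- cells, and 2, 2 and 3 of the 8 fits ended these calls. Saa1, an acute phase protein, rose in IL10-/- cells by 0.91 ± 0.10 and in p50-/-IL10-/- cells by 2.11 ± 0.10. Ptgs2, the inducible cyclooxygenase, read 7.70 and 7.50 with IL-10, against 7.88 and 7.72 with LPS alone, in IL10-/- cells and was not called there. In p50-/-IL10-/- cells it read 8.91 and 8.72 with IL-10, against 7.29 and 6.59 with LPS alone, and was higher by 1.88 ± 0.18. Nfatc1, a transcription factor of the NFAT family, had effects of 0.31 ± 0.07 in IL10-/- cells and -0.51 ± 0.07 in p50-/-IL10-/- cells, and the call of the difference ended in 6 of the 8 fits. For the effect in IL10-/- cells its other probe set was not called (0.13).

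**Figure D5:**
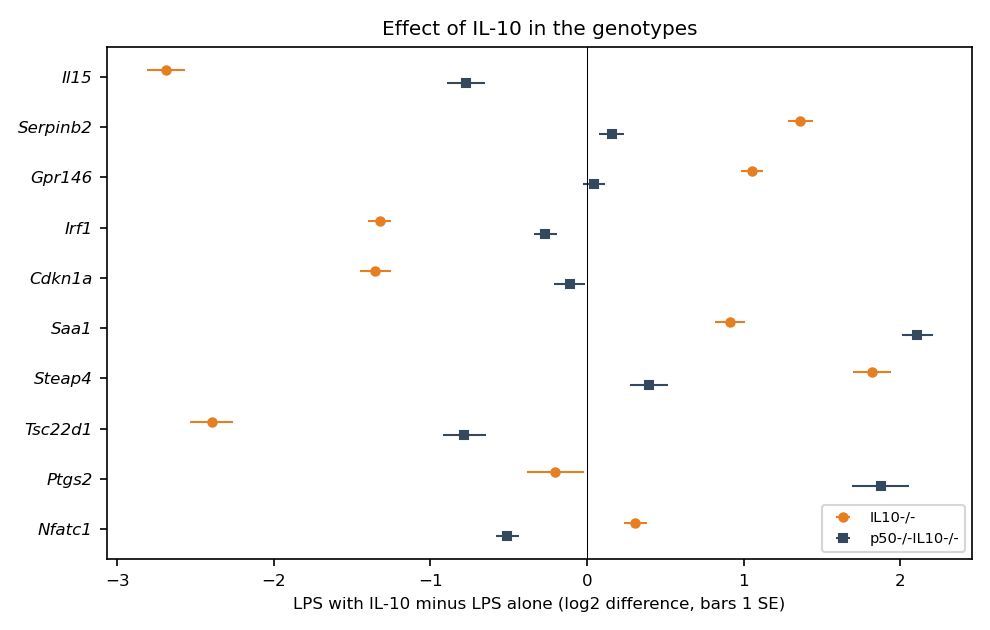
Effect of IL-10 (log2 difference, LPS with IL-10 minus LPS alone, bars 1 SE) for the 10 genes with the lowest adjusted p in the test of the difference, with IL10-/- cells as orange circles above p50-/-IL10-/- cells as dark squares. Il15 lies at -2.69 and -0.77, and Ptgs2 at -0.20 and 1.88.

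Of the 38 antiviral genes, 0 were called in the test of the difference by limma, while 15 had a more negative and 0 a more positive effect in IL10-/- cells at an unadjusted p under 0.05. Over all 12393 genes 1452 were at that threshold in this test, both directions together, and the split by direction is not given here. The median effect of the antiviral genes was -1.24 in IL10-/- cells and -0.26 in p50-/-IL10-/- cells. In the latter all 38 were below 0 as well and 0 were called, with 3 lower and 0 higher at an unadjusted p under 0.05. The share of all genes at that threshold in p50-/-IL10-/- cells is not given here, so these counts have no background. Glycolysis and hypoxia genes had a median of 0.55 in IL10-/- cells and 0.19 in p50-/-IL10-/- cells, with 14 and 4 called higher. In the test of the difference 0 of 26 were called by limma, and 10 had a more positive and 0 a more negative effect in IL10-/- cells at an unadjusted p under 0.05. These too are to be read against the 1452 of all genes. The effect on Mt2 was 2.74 ± 0.41 in IL10-/- cells and 2.67 ± 0.41 in p50-/-IL10-/- cells, a difference of 0.07 ± 0.58. That on Il4ra was 2.40 ± 0.13 in IL10-/- cells and 2.36 ± 0.13 in p50-/-IL10-/- cells, a difference of 0.04 ± 0.19, and neither difference was called.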

How the data were processed

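RNA (6 µg total) from mouse bone marrow-derived macrophages was read on 12 Affymetrix arrays, 2 in each of 6 groups. The values deposited by the authors are log2 intensities, made with RMA per the submitters' processing notes, which also name limma; versions are not given in the sources used here. Of 22690 probe sets, 64 controls were left out. A single gene symbol was given by 20380, several by 691 and none by 1555, and 20351 matched the gene table by ID. For each of 12393 genes the probe set brightest on average was kept.

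A group-means model was fitted with limma 3.58.1 in R 4.3.3 to all 12 arrays, with Benjamini-Hochberg adjustment over 12393 genes and calls at an adjusted p under 0.05. The fit was tested on simulated data with noise drawn independently for each array. The simulation thus lacked the correlated deviations of same-numbered arrays that are given below. Replicates were compared before averaging and none was a duplicate. Intervals are 95%.

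The gene lists (36, with 648 of 745 entries measured) and the named genes were chosen with earlier results of these data known. The genes named are the 15 largest called increases and decreases whose groups do not overlap and whose higher mean is above the arrays' lower quartile, up to 6 called members per list and direction, all members of the IL-10 receptor list, the 10 lowest adjusted p in the test between genotypes, and cell type markers. Other list members were named after their values were seen. Alternatives were a replicate block, the compared groups alone, the IL10-/- arrays alone, centring, the mean of probe sets, no dim genes, an intensity trend, array weights, and each array left out. A gene encoding p50 is not analysed here.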

Additional observations from a re-analysis of the deposited data

Results flagged for a closer look

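The 10 genes with the lowest adjusted p in limma's test of the IL-10 effect between genotypes, IL10-/- minus p50-/-IL10-/- cells, are listed because the effects differed. The effect was more negative in IL10-/- cells for Il15 (log2 difference -1.92), Irf1 (-1.06), Cdkn1a (-1.24), Tsc22d1 (-1.61), Saa1 (-1.20) and Ptgs2 (-2.08). It was more positive for Serpinb2 (1.20), Gpr146 (1.01), Steap4 (1.42) and Nfatc1 (0.82). For Saa1 both effects were increases, and the one in p50-/-IL10-/- cells was larger. For Nfatc1 the effects had opposite signs. Fitted without 1 array at a time, the calls of Il15, Irf1, Serpinb2 and Gpr146 were kept in all 8 fits, those of Saa1, Cdkn1a and Tsc22d1 ended in 2, that of Steap4 in 3, that of Ptgs2 in 4 and that of Nfatc1 in 6.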

How the results depend on the processing

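The direction of the IL-10 effect in IL10-/- cells did not turn for any called gene named here under any alternative run. The count of 765 calls (415 higher, 350 lower) was 283 (139 and 144) with the compared groups alone, 492 (263 and 229) with array weights and 416 (215 and 201) with the 6 IL10-/- arrays alone. With 1 array left out it was 426 to 1082 (216 to 631 higher, 205 to 451 lower). With the replicate number as a block it was 950 (491 and 459). Of the 30 largest genes, 26 kept their calls with the compared groups alone, with array weights and with the 6 arrays, and 30 under the block, centring, the mean of probe sets, no dim genes and an intensity trend. Deviations of same-numbered IL10-/- arrays correlated at 0.586 between LPS with IL-10 and LPS alone, at 0.595 between LPS with IL-10 and no stimulus and at 0.398 between LPS alone and no stimulus. In p50-/-IL10-/- cells LPS with IL-10 and LPS alone correlated at -0.49. The labels do not say that a number marks a shared culture, and with 2 numbers whether they pair the arrays is not settled. Of the 38 antiviral genes 37 were called under the block, against 17 without it, and 9 with the compared groups alone, 7 with array weights and 5 with the 6 arrays.

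The 17 genes that differed between genotypes (5 and 12) became 74 (21 and 53) under the block, 10 (3 and 7) with the compared groups alone and 26 (11 and 15) with the mean of probe sets. Array weights gave 12, of which 7 were more negative. With 1 array left out the count was 4 to 43 (2 to 16 and 2 to 27). With crossed numbers in the block, chosen after seeing the data, it was 222 (95 and 127). The cause of these changes was not tested. With 2 arrays a group, their number limits the precision, and dim genes near the lower quartile have folds of uncertain size.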
